A study of Mus musculus with 4 samples.

Results

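Spp1, Clu, Wfdc2 and Mdk are 4 genes for secreted proteins that are known from duct epithelium, and they were followed among 27998 genes counted in single cells of the embryonic mouse pancreas. They were picked by name, with their values in these cells already known, so their levels are given as a description and without a test. The knockout library came from PdxCre;OGTflox/flox;CAG GFP embryos, sorted on endogenous GFP. In these embryos Cre is driven from the Pdx promoter, which is active in pancreatic epithelium, and Ogt encodes the enzyme that attaches O-GlcNAc to proteins. The control library came from OGTflox/flox embryos, labelled wild type, and was sorted on E-cadherin according to the series' design text, while the sample labels name GFP for both. All embryos were at embryonic day 15.5 and were processed with droplet capture from 10x Genomics. Each genotype was 1 library sequenced in repeat runs, so that there was no biological replicate, and genotype, sort and library cannot be told apart.

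Osteopontin (Spp1) is a secreted phosphoprotein that binds integrins and Cd44 and is widely used as a marker of pancreatic duct cells and of the trunk epithelium, the branching tubes that give rise to ducts and to endocrine progenitors. Clusterin (Clu) is an extracellular chaperone, Wfdc2 is a small secreted protein with whey acidic protein domains made by many ducts and glands, and midkine (Mdk) is a heparin-binding growth factor that is abundant in embryonic epithelium and mesenchyme. Acinar cells arise from the tips of the same epithelium and make digestive enzymes. RNA released from broken cells enters every droplet, so highly expressed genes of 1 cell type are also counted at a low level in cells that do not make them.

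In mm10 coordinates with GENCODE M21 gene models, Spp1 lies at chr5:104435118-104441050 on the plus strand and Clu at chr14:65968483-65981547 on the plus strand. Wfdc2 lies at chr2:164562413-164568510 on the plus strand and Mdk at chr2:91929805-91932297 on the minus strand. All 4 are protein-coding. Spp1 overlaps a predicted gene on its own strand that was not among the counted rows, and the other 3 overlap no annotated gene. The site by which osteopontin binds integrins is a tripeptide of arginine, glycine and aspartate, and its codons were found at 1 place in the 885 coding bases of the Spp1-202 transcript, with arginine as codon 145. The stretch around it, at chr5:104439445-104439525 on the plus strand, is shown because receptors of osteopontin are set beside Spp1 further on. The capitals mark the 3 codons.
Spp1: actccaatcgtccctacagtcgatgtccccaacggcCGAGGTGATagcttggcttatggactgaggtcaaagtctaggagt

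The knockout file held 617 barcodes with a median of 15367 UMIs (unique molecular identifiers, 1 per captured RNA molecule) and the control file 941 barcodes with a median of 10756 UMIs, and no barcode was shared. After filters 553 knockout and 921 control cells remained. Ogt itself stood at 56.5 CPM (counts scaled to a library total of 1000000 UMIs) in all knockout cells and at 61.8 CPM in all control cells. These values mix all cell classes, including the leukocyte-like cells given next, and do not show the level in epithelium. Counts over the whole gene also do not check the deletion of some of its exons. Although labelled as pancreatic epithelium, 79 of the knockout cells and 705 of the control cells were leukocyte-like by their markers. Xist was counted in 99.1% of knockout cells and 22.8% of control cells, and Y-linked genes in 0% and 53.0%, so the libraries also differed in the sex of the embryos. The 4 genes were left out of the clustering and of the marker lists.

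The shared trunk/ductal-like cluster (cluster 9, 40 knockout and 35 control cells) was the highest place for Spp1 in both libraries. A second trunk/ductal-like cluster (cluster 8, led by the chymosin gene Cym) held 91 knockout cells and 0 control cells. In the knockout library Spp1 stood at 4377 CPM in cluster 9 (95% exact Poisson interval 4235 to 4523) and at 2188 CPM in cluster 8 (2121 to 2258). In control cluster 9 it stood at 5660 CPM (5453 to 5874). Spp1 was thus highest in the control cells, lower in the knockout cells of the same cluster and lowest in cluster 8, with no overlap of the intervals, which cover counting error only. Single cells spread far more widely than these intervals. The lowest, median and highest knockout cell of cluster 9 held 1381, 3737 and 12452 CPM, against 1313, 5733 and 15968 CPM in control cells, so the cells of both libraries covered almost the same range.

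Clu, Wfdc2 and Mdk had a different order over these clusters. Clu stood at 1338 CPM in knockout cluster 9 and 1479 CPM in knockout cluster 8, against 986 CPM in control cluster 9. Wfdc2 stood at 568 and 730 CPM in the knockout clusters 9 and 8, against 391 CPM in control cluster 9. Mdk stood at 1088 and 933 CPM in the knockout clusters 9 and 8, against 736 CPM in control cluster 9. For these 3 genes both knockout clusters therefore lay above the control cluster in CPM as counted. Cluster 8 exceeded knockout cluster 9 for Clu and Wfdc2 but not for Mdk. With the leukocyte-like level of the same library subtracted, Mdk kept 593 CPM in knockout cluster 8, below the 695 CPM of control cluster 9. Mdk in knockout cluster 9 kept 748 CPM. Knockout cluster 8 stayed above control cluster 9 for Clu (1258 against 942 CPM) and Wfdc2 (630 against 381 CPM). Of the summed UMIs of the 4 genes, Spp1 took 59.4% in knockout cluster 9 and 41.1% in knockout cluster 8, against 72.8% in control cluster 9.

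**Figure D1:**
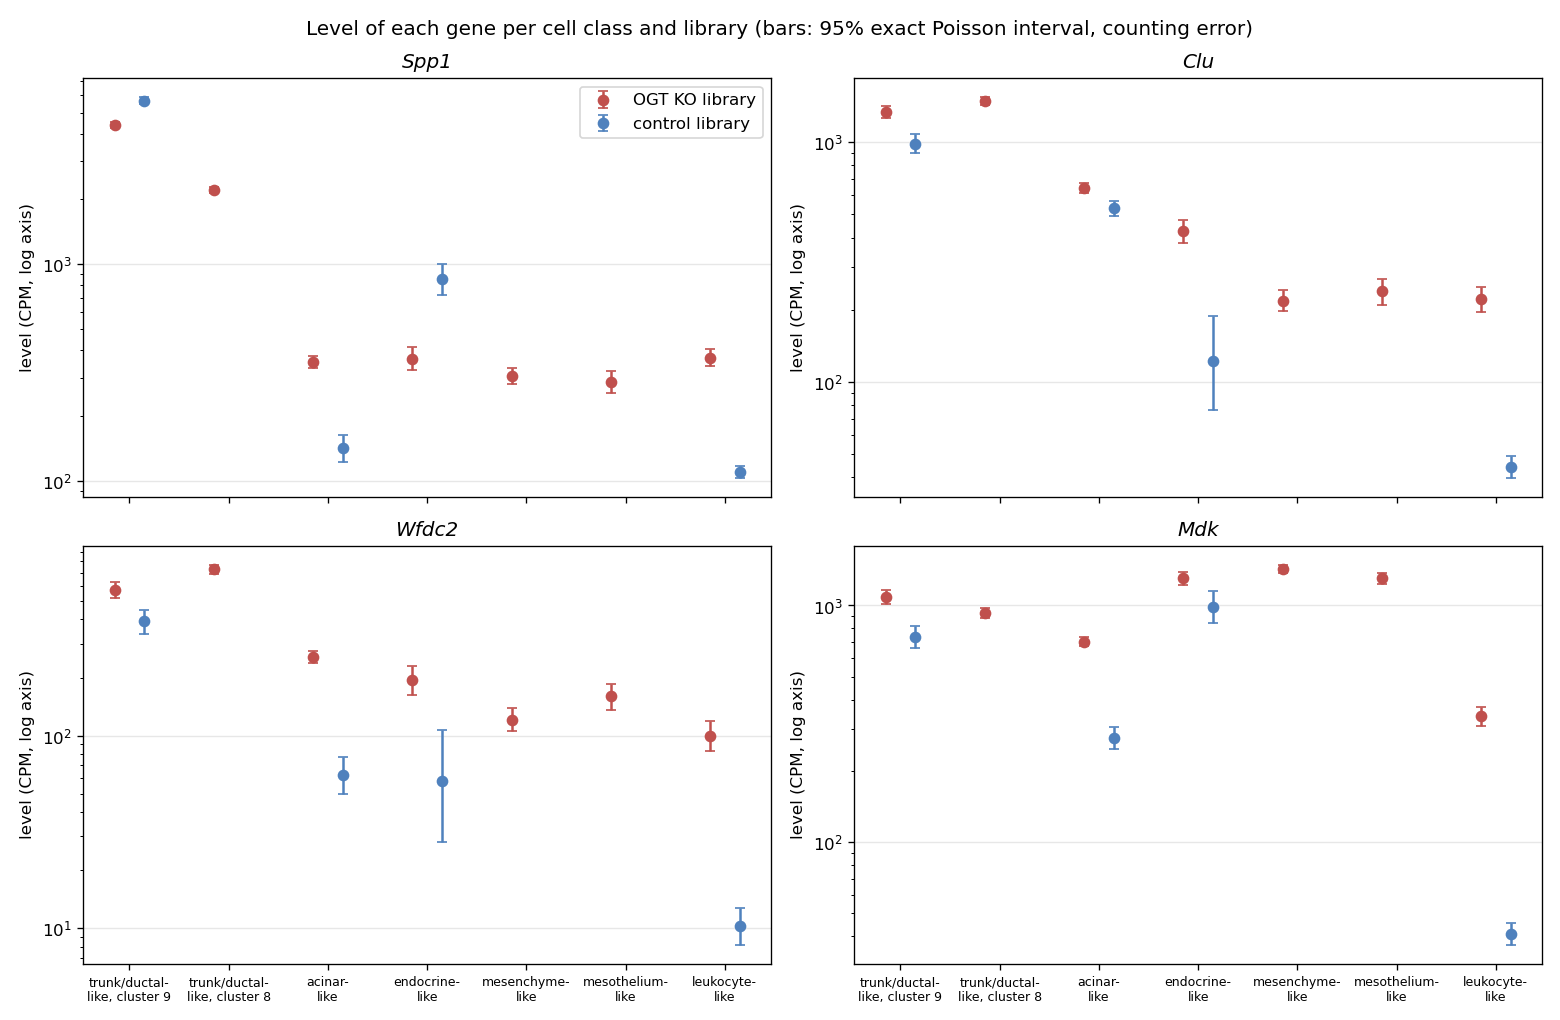
Level of each gene (CPM, log axis) in each cell class with at least 10 cells, in the OGT KO library (red, left) and the control library (blue, right), with 95% exact Poisson intervals. Spp1 stands at 2188 CPM or more in both trunk/ductal-like clusters and at 853 CPM or less elsewhere, while Mdk is highest in the knockout mesenchyme-like cells at 1431 CPM.

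The ratio of the knockout to the control level in cluster 9 was 0.773 for Spp1 (95% exact conditional interval 0.736 to 0.813), 1.36 for Clu (1.22 to 1.51), 1.45 for Wfdc2 (1.23 to 1.73) and 1.48 for Mdk (1.31 to 1.68). None of the 4 genes reached a 1.5-fold difference in either direction, a size passed by 13.3% of the 7044 genes counted there as higher and by 13.2% as lower. The knockout cells were deeper, with a median of 18310 UMIs against 12921 UMIs in control cells. Without scaling to the total, Spp1 had 89.2 UMIs per knockout cell and 80.2 UMIs per control cell, so the order of the libraries for Spp1 turns with the scaling. For Clu the same counts were 27.3 and 14 UMIs per cell, for Wfdc2 11.6 and 5.54, and for Mdk 22.2 and 10.4, in knockout and control cells. The trunk/ductal markers of the cluster itself summed to 3074 CPM in knockout and 3862 CPM in control cells, with 1 of 22 at 0 in each. Leukocyte markers summed to 459 CPM in knockout cluster 9 and 3544 CPM in control cluster 9, with 0 of 14 markers at 0 in either. Acinar markers summed to 7269 and 4405 CPM, with 2 and 4 of 20 at 0, and mesenchyme markers to 1602 and 387 CPM, with 2 and 11 of 18 at 0, in knockout and control cells. The part of these in the ratios was not tested.

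Every cell with at least 5000 UMIs was thinned to 5000 UMIs, and cells below that were left out of the thinned shares. This left 78 of 79 knockout and 633 of 705 control leukocyte-like cells. Spp1 was found in all 40 knockout cells and all 35 control cells of cluster 9, and 95% and 94.3% of them held at least 10 UMIs. In knockout cluster 8 the share with at least 10 UMIs of Spp1 was 46.2% (exact binomial interval 35.6% to 56.9%). Clu reached at least 5 UMIs in 47.5% of knockout and 48.6% of control cells of cluster 9, and in 64.8% of cluster 8. Wfdc2 was found in 90.0% of the knockout cells of cluster 9 (76.3% to 97.2%) and in 77.1% of the control cells (59.9% to 89.6%), intervals that overlap. Among leukocyte-like cells, taken as the measure of free RNA, thinned shares with at least 1 UMI were 84.6% for Spp1, 62.8% for Clu, 39.7% for Wfdc2 and 87.2% for Mdk in the knockout library and 39.3%, 19.6%, 5.37% and 17.5% in the control library. Their median depths were 14953 UMIs in the knockout and 10141 UMIs in the control library. A share of cells with 1 UMI is thus no measure of expression for these genes, least of all in the knockout library.

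The spread between single cells of 1 cluster was described on the thinned counts. The variance of the thinned Spp1 count was 7.34 times its mean in knockout cluster 9, 6.33 times in knockout cluster 8 and 7.30 times in control cluster 9, where counting alone gives a value near 1. For Clu it was 3.54, 3.09 and 2.33 times in the same order, for Wfdc2 1.18, 1.76 and 1.67 times, and for Mdk 1.53, 1.71 and 1.18 times. This quantity grows with the mean of a gene that varies between cells, and the thinned mean was 23 UMIs for Spp1 and 5.83 UMIs for Clu in knockout cluster 9, and 28.7 and 4.91 UMIs in control cluster 9, so it does not rank the genes. Over the 6 pairs of genes in cluster 9, Spearman's rho ran between -0.01 and 0.37 in the 40 knockout cells and between -0.22 and 0.24 in the 35 control cells, with the highest value for Spp1 and Clu in both. With 40 and 35 cells, each from 1 library, such values describe the cells and are no finding.

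**Figure D2:**
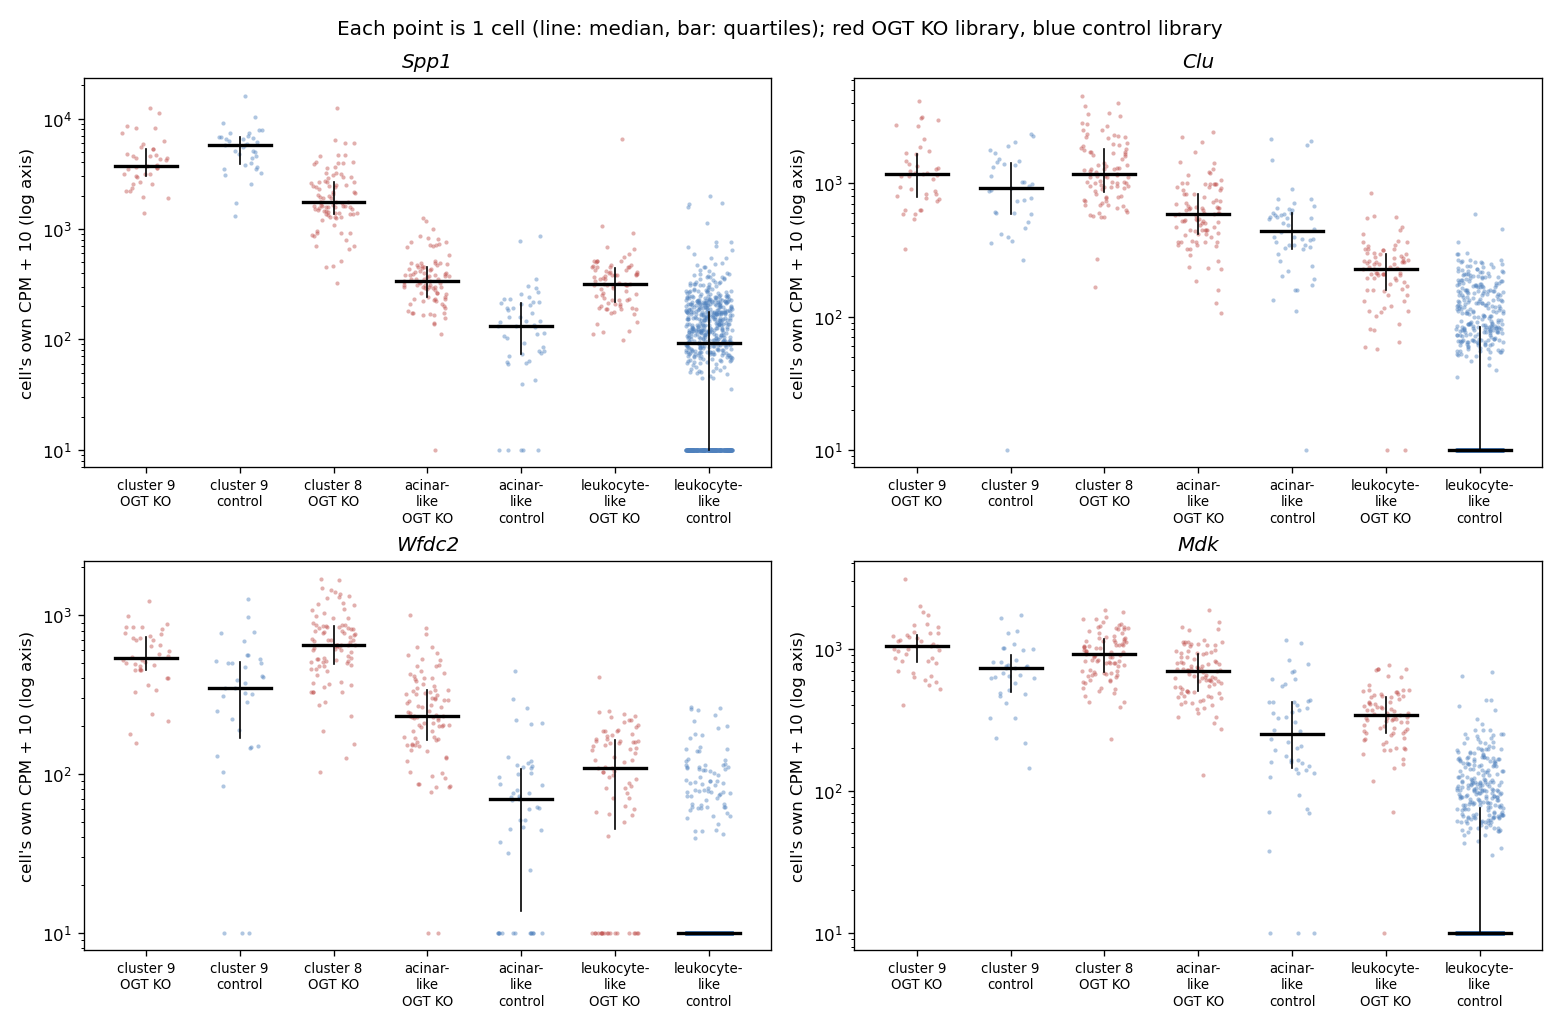
Each point is 1 cell (its own CPM plus 10, log axis) in the trunk/ductal-like clusters 9 and 8, the acinar-like and the leukocyte-like cells, red for the OGT KO library and blue for the control library, with the median and quartiles in black. For Spp1 the acinar-like cells of each library lie in the range of the leukocyte-like cells, and 1 knockout leukocyte-like cell stands apart at 6512 CPM.

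Leukocyte-like cells gave the free RNA level of each gene. In the knockout library they held 370 CPM of Spp1, 221 CPM of Clu, 99.9 CPM of Wfdc2 and 340 CPM of Mdk. In the control library they held 110 CPM of Spp1, 44.1 CPM of Clu, 10.2 CPM of Wfdc2 and 40.9 CPM of Mdk. The knockout level was the higher for all 4 genes, by 3.37-fold for Spp1 (3.01 to 3.76), 5.02-fold for Clu (4.28 to 5.88), 9.74-fold for Wfdc2 (7.34 to 13) and 8.33-fold for Mdk (7.21 to 9.63). All 4 genes were at least 1.5-fold higher in the knockout library, as were 21.8% of the 10973 genes counted in these cells, while 17.3% were at least 1.5-fold lower. The class was a different mix of clusters in each library. Clusters 15, 2 and 17, with leading genes such as Cd7, S100a9 and Cpa3, held 28, 24 and 13 knockout cells, against 5, 90 and 2 control cells. Clusters 1 and 5, with leading genes such as Lyve1 and C1qa, held 0 and 2 knockout cells, against 154 and 94 control cells. The part of this mix in these differences was not tested. The cells outside the leukocyte-like clusters and an unnamed haemoglobin-rich cluster made up 473 of the knockout library but 113 of the control library.

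Within a library, the 4 genes were counted in leukocyte-like cells in nearly the proportion in which the other cells held them. Spp1, Clu, Wfdc2 and Mdk took 35.9%, 21.4%, 9.68% and 33% of their summed UMIs in knockout leukocyte-like cells, against 33.7%, 23.0%, 10.6% and 32.7% in the other knockout cells. In control leukocyte-like cells they took 53.6%, 21.5%, 4.99% and 19.9%, against 55.9%, 21.3%, 5.07% and 17.7% in the other control cells. The leukocyte-like level was between 29.6% and 34.7% of that in the other cells for all 4 genes in the knockout library and between 7.13% and 8.37% in the control library. The 34.7% is that of Spp1 and includes the outlying knockout cell described below. RNAs of acinar cells, used as tracers, reached a median of 17.2% of their acinar level in knockout leukocyte-like cells (9 tracers, 0% to 36.1%) and 6.19% in control ones (3.19% to 12.3%). Endocrine tracers reached medians of 2.45% in the knockout and 0.968% in the control, and mesenchyme tracers 5.86% and 0.543%. As a share of the level over the whole library, the acinar tracers stood at a median of 41.7% in the knockout and 37.2% in the control, the endocrine ones at 26.3% and 40.8%, and the mesenchyme ones at 20.9% and 47.5%. The shares of the 4 genes and of the tracers have different denominators and cannot be compared directly.

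**Figure D3:**
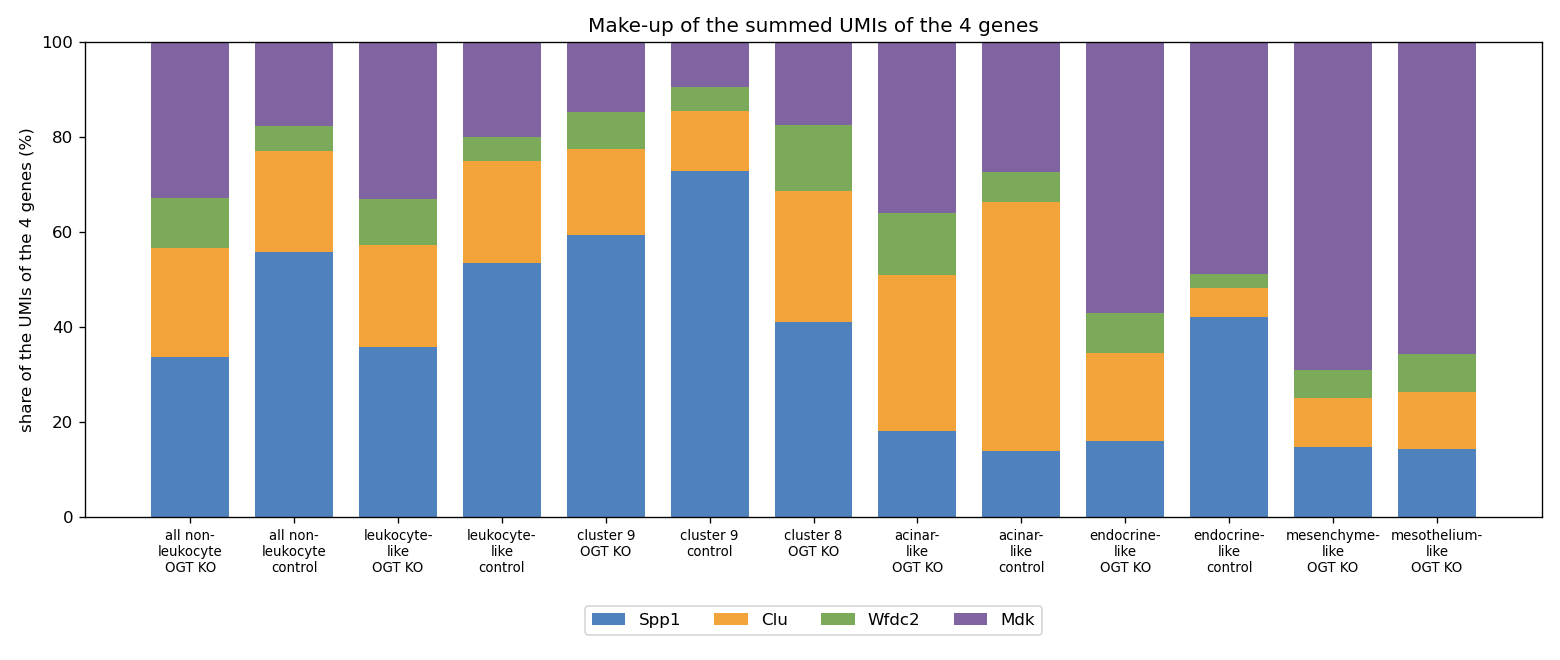
Share of the summed UMIs of the 4 genes taken by each gene (percent, stacked bars) in the cells outside the leukocyte-like and haemoglobin-rich clusters, in the leukocyte-like cells and in each class with at least 10 cells, OGT KO left of control. The leukocyte-like bars repeat the bars of the other cells of their own library (Spp1 35.9% and 33.7% in the knockout, 53.6% and 55.9% in the control), while mesenchyme-like and mesothelium-like cells are mostly Mdk.

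Single leukocyte-like cells stood out, and the ones given here were picked after their values were seen. In the knockout library 1 cell of cluster 5, a cluster led by macrophage genes such as Hmox1 and C1qa, held 83 Spp1 UMIs of its 12746 UMIs, while it held 4 UMIs of Clu and 2 of Wfdc2. That was 83 of the 482 Spp1 UMIs of the class, and without this cell the knockout level was 310 CPM. In the control library the 94 cells of cluster 5 held 159 CPM of Spp1 (135 to 185), against 86.1 to 126 CPM in the other control leukocyte-like clusters of at least 10 cells. There too 1 cell held 31 of the 163 Spp1 UMIs, and without it cluster 5 stood at 131 CPM, close to the next cluster. Clu, Wfdc2 and Mdk in control cluster 5 were at 48.7, 8.77 and 47.7 CPM, close to the class as a whole. In control cluster 1 the cell with most Spp1 UMIs held 18 of its 10820 UMIs, and the 2 control cells of cluster 17 stood at 390 CPM (195 to 698) with 11 Spp1 UMIs. For Mdk, the 5 control cells of cluster 15 stood at 365 CPM (232 to 548), with 21 of their 23 UMIs in 1 cell. Osteopontin is known to be made by some macrophages.

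Acinar-like cells separated the 4 genes. The class was 93 knockout cells, all in cluster 7, and 50 control cells, of which 49 were in cluster 14, so that different clusters carried it. Spp1 stood at 353 CPM in knockout acinar-like cells (332 to 375) and at 142 CPM in control acinar-like cells (122 to 164). Relative to the leukocyte-like cells of their own library these levels were 0.953-fold (0.855 to 1.06) in the knockout and 1.29-fold (1.09 to 1.51) in the control. The single macrophage-like cell with 83 Spp1 UMIs decides the knockout value: without the highest leukocyte-like cell of each library the levels were 1.14-fold (1.01 to 1.28) in the knockout and 1.33-fold (1.13 to 1.56) in the control. On the CPM scale Spp1 in acinar-like cells was thus at or a little above the background in both libraries. Per cell, acinar-like cells held 11.1 UMIs of Spp1 in the knockout and 3.66 in the control, against 6.10 and 1.26 UMIs in the leukocyte-like cells of the same libraries, so that on this scale both lay above the background. The thinned share of acinar-like cells with at least 1 Spp1 UMI was 80.6% in the knockout and 45.8% in the control (48 of the 50 cells), beside 84.6% and 39.3% of the leukocyte-like cells of the same libraries. Median depths were 31391 UMIs in knockout and 23318 UMIs in control acinar-like cells before thinning, and 98.9% and 90.0% of those cells had a Spp1 UMI.

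Clu was well above the background in acinar-like cells, at 644 CPM in the knockout and 529 CPM in the control, which was 2.91-fold and 12-fold the leukocyte-like level. Mdk stood at 702 CPM in knockout and 276 CPM in control acinar-like cells, 2.06-fold and 6.75-fold the leukocyte-like level. Wfdc2 stood at 255 CPM in knockout and 62.6 CPM in control acinar-like cells, 2.55-fold and 6.11-fold the leukocyte-like level. These 3 genes exceeded the leukocyte-like level in both libraries, and by a larger factor in the control library, where that level is lower.

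The knockout to control ratio in acinar-like cells was 2.49 for Spp1 (2.13 to 2.93), 1.22 for Clu (1.11 to 1.33), 4.07 for Wfdc2 (3.23 to 5.19) and 2.54 for Mdk (2.27 to 2.85). Of the 4 genes 3 were thus at least 1.5-fold higher in the knockout library, as were 14.5% of the 9538 genes counted, while 0 of the 4 and 13% of all genes were lower. Acinar markers summed to 41028 CPM in knockout and 56488 CPM in control acinar-like cells, with 0 and 1 of 20 at 0, and leukocyte markers to 486 and 3538 CPM, with 0 of 14 at 0 in either. Their part in the ratios was not tested. With the leukocyte-like level of the same library subtracted, Wfdc2 kept 155 CPM in the knockout and 52.4 CPM in the control, a ratio of 2.96, and Mdk kept 361 and 235 CPM, a ratio of 1.54. Clu kept 423 CPM in the knockout and 485 CPM in the control, which turned its ratio to 0.871, and Spp1 kept -17.4 CPM in the knockout, which gives no ratio. With the highest leukocyte-like cell of each library left out, Spp1 kept 43.4 CPM in the knockout and 35.1 CPM in the control. The higher Spp1 of knockout acinar-like cells went with a higher free Spp1 level of that library, and the direction for Clu depends on whether free RNA is subtracted. In cluster 9 the same subtraction gave ratios of 0.722 for Spp1, 1.19 for Clu, 1.23 for Wfdc2 and 1.08 for Mdk.

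**Figure D4:**
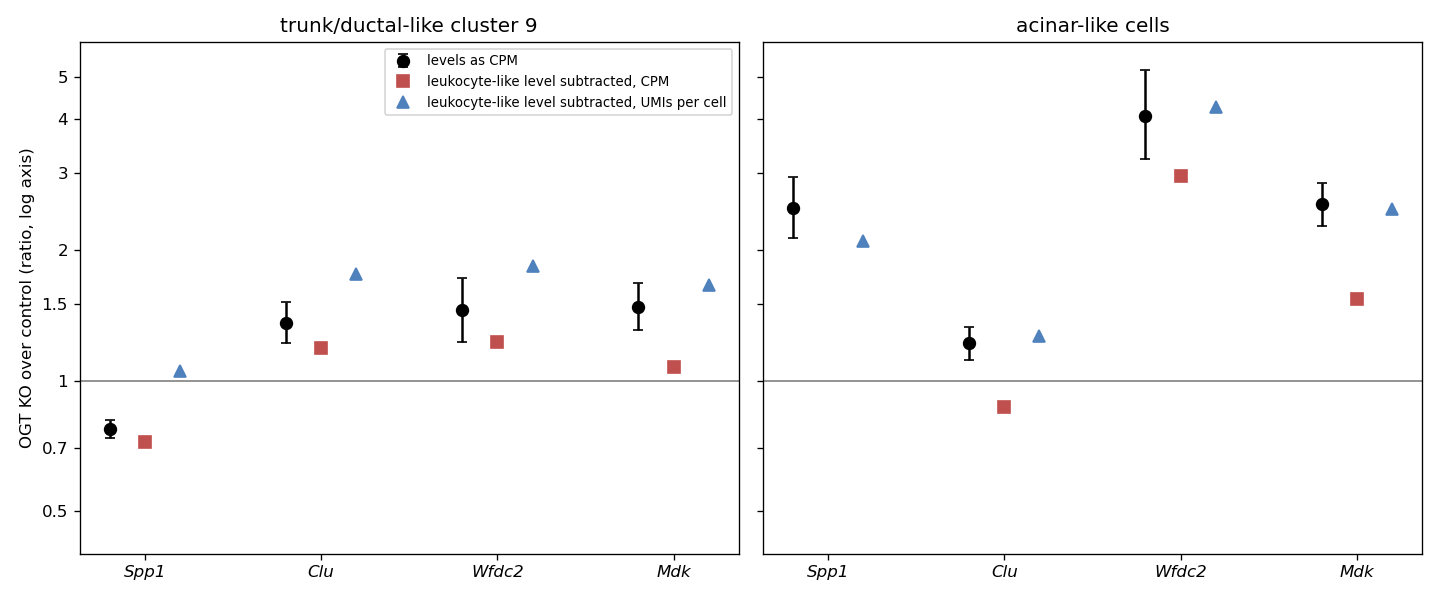
Ratio of the OGT KO to the control level (log axis) in the shared trunk/ductal-like cluster 9 and in acinar-like cells, as CPM with exact 95% intervals (black), with the leukocyte-like CPM of the same library subtracted (red) and with the leukocyte-like UMIs per cell subtracted (blue). Spp1 in cluster 9 goes from 0.773 to 0.722 and to 1.05 by these scales, Clu in acinar-like cells from 1.22 to 0.871 and to 1.26, and no red point is drawn for Spp1 in acinar-like cells.

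Endocrine-like cells carried Mdk at 1303 CPM in the knockout library (42 cells) and 988 CPM in the control library (20 cells), 3.83-fold and 24.2-fold the leukocyte-like level. Spp1 stood at 367 CPM in knockout endocrine-like cells, 0.991-fold the leukocyte-like level (1.19-fold without the cell of 83 UMIs), and at 853 CPM in control ones. In the control library 4 of the 20 cells, with 56, 44, 17 and 14 UMIs, held nearly all of its 146 Spp1 UMIs, and the same cells held 51, 97, 136 and 60 UMIs of Neurog3, the transcription factor of endocrine progenitors. Cells with at least 1000 CPM of Neurog3, a limit set after seeing these cells, had 445 CPM of Spp1 in the knockout library (10 cells, 351 to 557) and 1723 CPM in the control library (8 cells, 1443 to 2042). The control value rests on the 4 cells already given, since the other 4 control cells past this limit held 1, 1, 0 and 0 Spp1 UMIs. The other endocrine-like cells had 342 CPM in the knockout library (295 to 395) and 138 CPM in the control library (73.7 to 237). For Spp1 the knockout interval overlaps that of the knockout cells past the limit. Mdk was higher in the cells past the Neurog3 limit in both libraries, at 2085 CPM in the knockout and 1904 CPM in the control library. In the other endocrine-like cells it stood at 1056 CPM in the knockout and 234 CPM in the control library. Clu reached 425 CPM in knockout and 123 CPM in control endocrine-like cells, and Wfdc2 194 and 58.4 CPM. Both were likewise higher past the Neurog3 limit. Clu stood there at 674 CPM in the knockout and 220 CPM in the control, against 346 and 42.6 CPM in the other cells. Wfdc2 stood there at 328 CPM in the knockout and 130 CPM in the control, against 152 and 0 CPM in the other cells.

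Outside the epithelium Mdk stood far above the leukocyte-like level, at 4.21-fold in knockout and 33-fold in control mesenchyme-like cells, while none of the other 3 genes passed 1.60-fold in these classes. It stood at 1431 CPM in 142 knockout mesenchyme-like cells and at 1347 CPM in 8 control ones, and at 1302 CPM in 65 knockout mesothelium-like cells. In the knockout library these levels exceeded those of cluster 9, where Mdk was 1088 CPM, and mesothelium-like and endocrine-like cells did not differ beyond their intervals. Spp1 was at 304 CPM in knockout mesenchyme-like cells and 286 CPM in mesothelium-like cells, 0.822-fold and 0.773-fold the leukocyte-like level, or 0.984-fold and 0.925-fold without the cell of 83 UMIs. With that cell the knockout leukocyte-like level lay beside those of endocrine-like and acinar-like cells, and without it beside those of mesenchyme-like and mesothelium-like cells. Clu was at 0.987-fold and 1.08-fold and Wfdc2 at 1.21-fold and 1.60-fold the leukocyte-like level in the same classes, and of these 4 ratios the interval lay above 1 for Wfdc2 in mesothelium-like cells (1.26 to 2.03). The thinned counts of Spp1, Clu and Wfdc2 in these classes had variances between 0.826 and 1.15 times their means, the spread that counting alone gives. The 8 control mesenchyme-like cells held 5 UMIs of Spp1, 5 of Clu and 0 of Wfdc2 among 77191 UMIs, where a count of 0, taken as at most 3 counts, allows up to 38.9 CPM of Wfdc2.

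Pleiotrophin (Ptn), the paralog of midkine, was mainly mesenchymal. It stood at 2904 CPM in knockout and 2578 CPM in control mesenchyme-like cells, at 287 and 242 CPM in cluster 9 and at 685 CPM in knockout mesothelium-like cells. Mdk thus had a wider distribution than Ptn in these classes. Among relatives of Wfdc2, Wfdc15b was epithelial, with 183 CPM in knockout and 153 CPM in control cluster 9. Wfdc17 was highest in leukocyte-like cells, with 101 CPM in the knockout and 233 CPM in the control, from a different mix of clusters in each library. The bone relatives of Spp1 (Ibsp, Dmp1, Dspp and Mepe) had no UMI in the classes compared.

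Receptors were listed for osteopontin, midkine and clusterin. Of 10 osteopontin receptor genes, the shared integrin chain Itgb1 was counted everywhere, at 126 CPM in knockout and 137 CPM in control cluster 9. Cd44, which also binds hyaluronan, was mostly leukocytic, with 104 CPM in knockout and 113 CPM in control leukocyte-like cells against 3.68 and 14.1 CPM in cluster 9. Itgb5, which pairs with Itgav, stood at 58.4 CPM in knockout and 158 CPM in control leukocyte-like cells, and at 105 CPM in knockout and 194 CPM in control mesenchyme-like cells. Of the midkine receptors, the co-receptor Nrp1 was highest in mesenchyme-like cells, at 306 CPM in the knockout and 466 CPM in the control, and in cluster 9 the syndecan Sdc4 stood at 106 CPM in the knockout and 109 CPM in the control, and nucleolin (Ncl) at 396 and 415 CPM. Ptprz1, the phosphatase receptor of midkine, reached at most 16.3 CPM. Trem2, a microglial and macrophage receptor that binds clusterin, stood at 108 CPM in knockout and 336 CPM in control leukocyte-like cells.

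In cluster 9, 1 of 7 midkine receptors with enough counts was at least 1.5-fold higher in the knockout library (Sdc1, 76.1 CPM against 48.4 CPM in the control) and 0 were lower, and of 2 osteopontin receptors 1 was lower (Itgb5, 23.3 CPM against 40.3 CPM). In acinar-like cells 0 of 8 midkine receptors were higher and 1 was lower, and 0 of 4 osteopontin receptors were higher and 1 was lower. Of the clusterin receptors only Trem2 had enough counts, and it was lower in the knockout library in both classes. It stood at 2.45 CPM in knockout and 86.7 CPM in control cluster 9. In acinar-like cells it stood at 4.09 CPM in the knockout and 77.3 CPM in the control. The leukocyte marker sums of these cells were also lower in the knockout. Their part in the Trem2 values was not tested. Of all genes, 13.3% were higher and 13.2% lower in cluster 9, and 14.5% higher and 13% lower in acinar-like cells. The intervals of the Sdc1 ratio (0.967 to 2.63) and of the Itgb5 ratio (0.292 to 1.14) both include 1. The median log2 ratio of all genes was 0.03 in both classes.

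Other secreted genes of duct epithelium were set beside the 4. In cluster 9, 4 of 9 measured were at least 1.5-fold higher in the knockout library and 0 lower, with a median log2 ratio of 0.53, beside 13.3% higher and 13.2% lower of all genes. They were Serpina1b, a protease inhibitor of plasma (115 CPM against 12.1 CPM in the control), Vtn, the adhesion protein vitronectin (55.2 against 8.06 CPM), Igfbp2, a binding protein of insulin-like growth factors (36.8 against 12.1 CPM), and Reg1, an acinar secretory protein (33.1 against 20.2 CPM), whose ratio had an interval that includes 1 (0.771 to 3.80). Vtn, Igfbp2 and Serpina1b had 6 UMIs or fewer in the control cells. These 4 genes were also among the leading genes of other clusters, Vtn and Reg1 of the acinar-like cluster 7, Igfbp2 of the mesothelium-like cluster and Serpina1b of cluster 8. In knockout leukocyte-like cells Serpina1b stood at 84.5 CPM, Vtn at 62.2 CPM, Igfbp2 at 26.1 CPM and Reg1 at 28.4 CPM, so that Vtn in knockout cluster 9 was no higher than the background and the others were at most 1.5-fold above it. The highest in level, the binding protein gene Igfbp4, stood at 123 CPM in the knockout and 151 CPM in the control. Of 18 duct genes that are not secreted, 0 were higher and 5 lower, with a median log2 ratio of -0.26. Among the lower ones were Sox9, the transcription factor of the trunk (151 CPM in the knockout against 304 CPM in the control), Onecut1, another trunk transcription factor (34.4 against 60.5 CPM), and Bicc1, an RNA-binding protein of ducts (251 against 383 CPM). Pkhd1, the gene of polycystic kidney and hepatic disease, and the transcription factor gene Glis3 were the other two, at 27 and 8.59 CPM in the knockout and 52.4 and 30.2 CPM in the control. The keratins Krt8 and Krt18 had the highest levels, at 1671 and 1938 CPM in the knockout and 1538 and 1482 CPM in the control. Of 10 general epithelial genes 0 were higher and 0 lower. In acinar-like cells 7 of 11 secreted genes and 7 of 16 non-secreted duct genes were at least 1.5-fold higher in the knockout library, and 2 and 0 were lower. Of all genes counted in acinar-like cells, 14.5% were higher and 13% lower. Vtn had the highest level of the secreted ones there, at 329 CPM in the knockout and 132 CPM in the control. Among the non-secreted genes the keratin Krt7 stood at 93.4 and 32.5 CPM and the transcription factor gene Hhex at 63.8 and 24.0 CPM, in the knockout and the control. In leukocyte-like cells 9 of 10 secreted and 12 of 14 non-secreted duct genes were likewise at least 1.5-fold higher in the knockout library. There 1 and 0 were lower, beside 21.8% higher and 17.3% lower of all genes. The part of free RNA in the acinar-like counts was not tested.

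The genes closest in pattern to each of the 4 were ranked by Pearson's r of log2(CPM + 10) over 16 sums of a cluster in a library (6 knockout and 10 control), among 8592 genes. Cells of 1 library share its free RNA, so high values are easily reached and are given as a description. Among the control sums only clusters 9 and 14 were epithelial, and the rest were leukocyte-like clusters and the haemoglobin-rich cluster. No knockout sum was leukocyte-like, so that library and cell class are partly mixed in r. Closest to Spp1 were Tinagl1, a secreted matrix glycoprotein (r = 0.982), Dcdc2a, a doublecortin-domain protein of cilia, the collagen chain Col2a1, Clmn and the growth factor receptor Fgfr2. Closest to Clu were the simple epithelial keratins Krt18 (r = 0.999) and Krt8 and the tight junction genes Cldn7 and Cldn6. Closest to Wfdc2 were the TNF-family receptor gene Tnfrsf12a (r = 0.988) and the glutathione transferase gene Gsta3, and closest to Mdk were the imprinted RNA Meg3 (r = 0.991), Igf2bp2 and Grb10. Among the 4 themselves r was highest between Clu and Wfdc2 (0.968) and lowest between Spp1 and Mdk (0.720). With a minimum of 1000 UMIs per gene 1 of the 5 genes closest to Spp1 was shared with the list above, and 4 of 5 for Clu.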

How the data were processed

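The deposited values are UMI counts for each gene in each cell, in 1 table per genotype. Per the submitters' processing notes, the authors used Cell Ranger 2.0.0, Seurat 2.0, DESeq2 1.14.1 and mm10, with no role or setting named. Of 27998 rows, 27645 took a symbol from GENCODE M21. The other 353 held 0.0315% of knockout and 0.0274% of control UMIs and were kept in the totals.

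The 4 genes, the lists beside them and the naming rule were chosen with earlier results of these data known. A barcode was kept with 500 or more genes and no more than 10% of UMIs from mitochondrial genes, and Scrublet doublets (8 knockout, 4 control) were removed. Both libraries were clustered together without correction (scanpy 1.11.5, leidenalg 0.10.2, 2000 variable genes, 30 components, 15 neighbours, resolution 1), leaving out the 4 genes. A cluster took the name of its best marker list with at least 5 markers detected. Its own markers had to equal or outnumber those of any other type among its 10 leading genes.

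Levels (CPM) are summed UMIs of a gene scaled to 1000000 UMIs, with exact Poisson intervals, ratios have exact conditional and shares exact binomial intervals, all at 95%. Genes reaching 20 UMIs in a class were compared, in classes of at least 30 cells per library. Intervals cover counting error only, and with 1 library per genotype nothing was tested. The interval code was tested on simulated counts that held counting error only, so the spread between cells was not part of that test. TMM factors came from edgeR 4.0.16 and median-of-ratios factors from DESeq2 1.42.0. Named were the 4 genes, relatives and receptors at 50 CPM or more (others only as counts or at 0), the 5 duct genes of each list with the largest ratio and the 3 at the highest level, and the 5 genes closest in pattern to each of the 4, from which the text picks. Neurog3, Ptprz1 and single cells were singled out after their values were seen.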

Additional observations from a re-analysis of the deposited data

Results flagged for a closer look

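On the CPM scale Spp1 differed between the libraries in opposite directions in 2 classes of epithelium. Its knockout to control ratio was 0.773 in the shared trunk/ductal-like cluster and 2.49 in acinar-like cells, and the difference between these ratios was not tested. As UMIs per cell with free RNA subtracted, the ratios were 1.05 and 2.10, both in the same direction. In knockout acinar-like cells Spp1 was at 0.953-fold the level of leukocyte-like cells of the same library, and in control ones at 1.29-fold. Without the leukocyte-like cell highest in Spp1 in each library these were 1.14-fold and 1.33-fold.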

How the results depend on the processing

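No paired analysis was possible because the repeat runs of a genotype cannot be told apart in the count tables, and leaving out 1 run in turn was not run for the same reason. Of the ratios under other settings, 87 stayed within the counting interval, 22 left it in the same direction and 2 reversed. The reversed ones were Spp1 in cluster 9 at 1.05 with free RNA subtracted as UMIs per cell, a scale without division by the total, and Clu in acinar-like cells at 0.871 with free RNA subtracted as CPM. With free RNA subtracted as CPM, cluster 9 gave 0.722 for Spp1, 1.19 for Clu and 1.08 for Mdk, and acinar-like cells 2.96 for Wfdc2 and 1.54 for Mdk, while Spp1 in acinar-like cells had no ratio. With free RNA subtracted as UMIs per cell, cluster 9 gave 1.75 for Clu and 1.83 for Wfdc2, and acinar-like cells 2.10 for Spp1. This alternative, the next and leaving out the highest leukocyte-like cells were chosen after seeing the data. With control cells limited to those with Xist and no Y-linked UMI, which leaves 5 control cells in cluster 9 and 4 acinar-like ones, cluster 9 gave 0.963 for Spp1, 2.10 for Clu and 1.06 for Mdk, and acinar-like cells 4.90 for Spp1, 1.49 for Clu and 1.80 for Mdk. Without the 5 highest cells of each library, Wfdc2 in cluster 9 was 1.77, and in acinar-like cells Clu was 1.38 and Mdk 2.99. At resolution 0.5, where clusters 8 and 9 merge, Spp1 was 0.506 and Wfdc2 1.74, and at 5% mitochondrial UMIs cluster 9 gave 0.714 for Spp1 and 1.26 for Mdk. With the mean of the cells' own CPM, Mdk in acinar-like cells was 2.27. The cause was not tested where cells or scales changed together. Resolution 2 and clustering each library alone gave no shared trunk/ductal-like cluster and so no value. Of the levels 380 stayed within their interval and 124 left it, of the thinned shares 21 and 75, and of the list counts 27 stayed within 1.5 times and 21 did not. The 35 control cells of cluster 9 and 20 endocrine-like ones limit the depth on the control side.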
